A study of Triticum dicoccoides with 12 samples.

Results

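The transcripts described here gave some of the brightest signals in wild emmer wheat roots, and their mean signal differed little between watered and water-stressed plants. They are 126 of the 61115 probe sets on the Affymetrix wheat genome array that are not controls, a probe set being several short probes that together read 1 transcript or transcript family. The 126 were chosen by their own values: the mean of the 3 arrays in each of 4 groups had to be at or above 3.0, and the stressed minus well-watered difference had to be smaller than 0.25 in size in both genotypes. The level limit alone was met by 413 probe sets, and the limit on differences then kept 126 and set aside 287. Levels and stress differences of the 126 are therefore a description of what was selected. Intervals are given to show how closely they were measured, and no test of them supports a result.

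Total RNA came from roots of 4-week-old Triticum turgidum subsp. dicoccoides, with 1 sample per array and 12 arrays in all. The genotypes Y12-3 and A24-39 were each kept well-watered or left without water for 7 days from the 4-leaf stage, in a greenhouse. Each of these 4 groups had 3 arrays labelled as biological replicates, and whether plants were pooled is not stated, so p-values measure the spread between these RNA samples. Values are log-like deposited units of unstated base, centred near 0 on each array. If no scaling followed the logarithm, 0.25 units would be a 1.28-fold ratio under the natural logarithm and a 1.19-fold ratio under base 2.

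Transcripts that stay level through a treatment are used as reference genes, to which other transcripts are scaled. Commonly used ones code for actin, tubulin, ubiquitin, elongation factor 1-alpha or glyceraldehyde-3-phosphate dehydrogenase, proteins that most cells need at all times. An array of total RNA reports the share of a transcript in the RNA, and not the number of molecules per cell, so a level share can go with more or less RNA per root. Fewer cells of a type and less RNA per cell cannot be told apart.

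Of the 126 probe sets, 19 had a gene symbol in the array annotation, for 16 genes. That is 15.1% of them, against 2.08% of all tested and 19.1% of the 413 abundant probe sets. A single one of the 16 symbols is a name with a known product: SAHH, adenosylhomocysteinase, an enzyme that breaks down S-adenosylhomocysteine, the by-product of methylation reactions, and so keeps the methyl cycle turning. The other 15 are placeholder symbols beginning with LOC, and 0 of the gene identifiers of the 19 were found in the RefSeq gene table of the wild emmer assembly WEW_v2.1, so their functions are not stated. The remaining 107 probe sets are known by identifier alone, and no probe or transcript sequence was used.

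The 126 probe sets ranked from 7 to 619 by mean level among the 61115, which places all of them in the top 1.01%. Mean levels over 12 arrays ran from 3.05 to 4.92, with a median of 3.55. The median over all tested probe sets was -0.30, and the highest mean of the 23 control probe sets that have no matching RNA in the sample was -0.15. The SD over all 12 arrays, which takes in stress, genotype and replicate spread, had a median of 0.188 and ran from 0.0771 to 0.559. It was under 0.15 for 31 probe sets and over 0.3 for 12. Within groups the residual SD had a median of 0.152, against 0.218 for the 287 other abundant probe sets and 0.0574 for all tested ones, most of which lay at background.

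**Figure D1:**
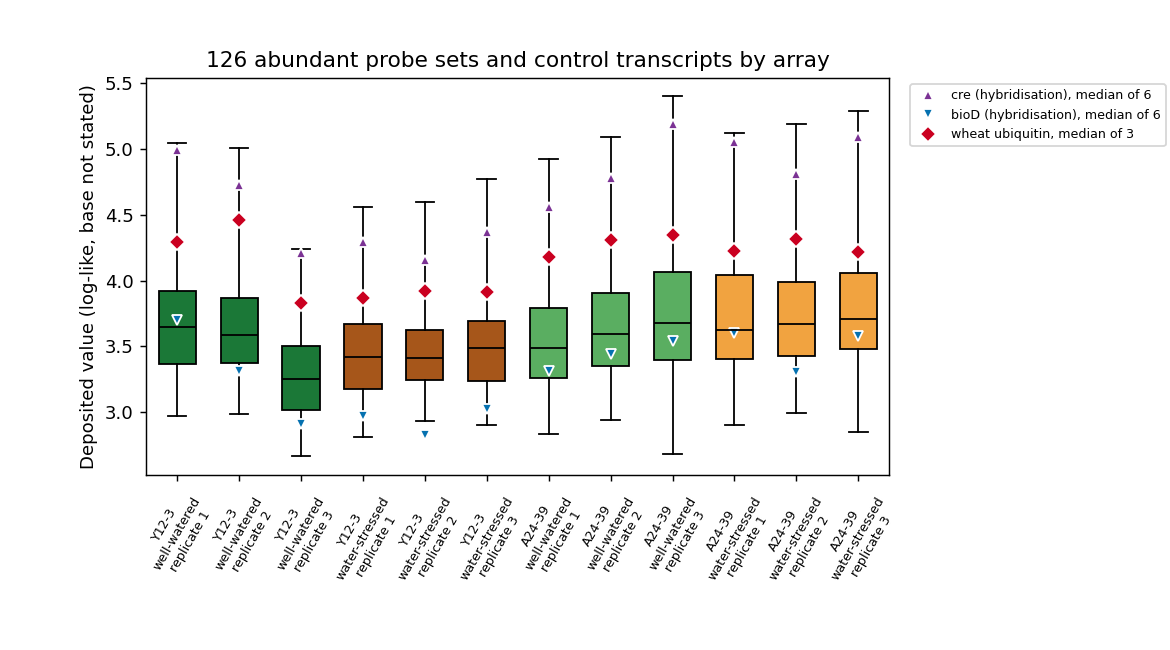
Box plots of the 126 probe sets on each of the 12 arrays (box, quartiles and median; whiskers, lowest and highest), with the median of the cre, bioD and wheat ubiquitin control probe sets, in deposited units. The third well-watered Y12-3 array and the 3 stressed Y12-3 arrays have cre values of 4.15 to 4.37, below the other 8 arrays, and the 126 are lowest on the third well-watered Y12-3 array.

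The arrays differed at the bright end of the scale, where all of these probe sets lie. The median of the 126 on the 3 arrays of a group was 3.65, 3.59 and 3.25 for watered Y12-3, 3.42, 3.41 and 3.49 for stressed Y12-3, 3.49, 3.59 and 3.67 for watered A24-39, and 3.62, 3.67 and 3.71 for stressed A24-39. The third well-watered Y12-3 array was lowest, with 27 of the 126 under 3.0, where the other arrays had 1 to 6, and the 3 stressed Y12-3 arrays came next. The plot of values by array shows the same 4 arrays lowest in cre, a bacteriophage transcript added in equal amount to each hybridisation and not made by the plant. The median of the 6 cre probe sets was 4.99, 4.72 and 4.21 for watered Y12-3, 4.29, 4.15 and 4.37 for stressed Y12-3, 4.56, 4.78 and 5.18 for watered A24-39, and 5.05, 4.80 and 5.09 for stressed A24-39. The stressed minus well-watered difference of cre was -0.37 for Y12-3 and 0.14 for A24-39.

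**Figure D2:**
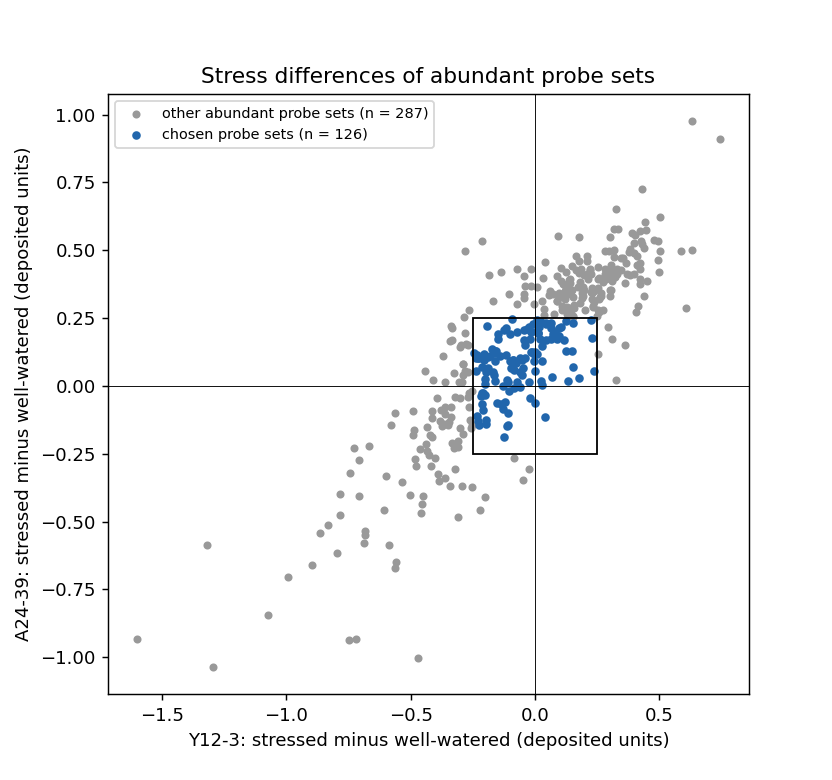
Stressed minus well-watered difference in Y12-3 (horizontal) and A24-39 (vertical), in deposited units, for the 413 probe sets with all 4 group means at or above 3.0. The box marks the limit of 0.25; of the 126 inside, 62 lie in its upper left part, 38 in the upper right, 25 in the lower left and 1 in the lower right.

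Within the limit, the stress differences were not spread evenly around 0. For Y12-3 they ran from -0.25 to 0.24 with a median of -0.07, and 87 of 126 were below 0. For A24-39 they ran from -0.19 to 0.25 with a median of 0.10, and 100 of 126 were above 0. Over all tested probe sets the medians were -0.01 and 0.02. A lower mean under stress for Y12-3 together with a higher one for A24-39 was found for 62 probe sets, and the opposite for 1. Both means were higher for 38 and both lower for 25. The difference of these responses, Y12-3 minus A24-39, which the limit bounds, had a median of -0.15.

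The 95% intervals show how closely these small differences were measured. The median half-width was 0.247 units in both genotypes, about as wide as the limit itself. The interval lay wholly within 0.25 units of 0 for 21 probe sets in Y12-3 and 15 in A24-39, and for 5 in both. It lay within 0.5 units of 0 for 106 and 108, and for 96 in both. Both differences were smaller than 0.1 in size for 22 probe sets. The interval left out 0 for 5 probe sets in Y12-3 and 13 in A24-39. These intervals were not adjusted for the number of probe sets, and the rule had already bounded the differences. The counts therefore cannot decide whether any of the stress differences was other than 0.

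**Figure D3:**
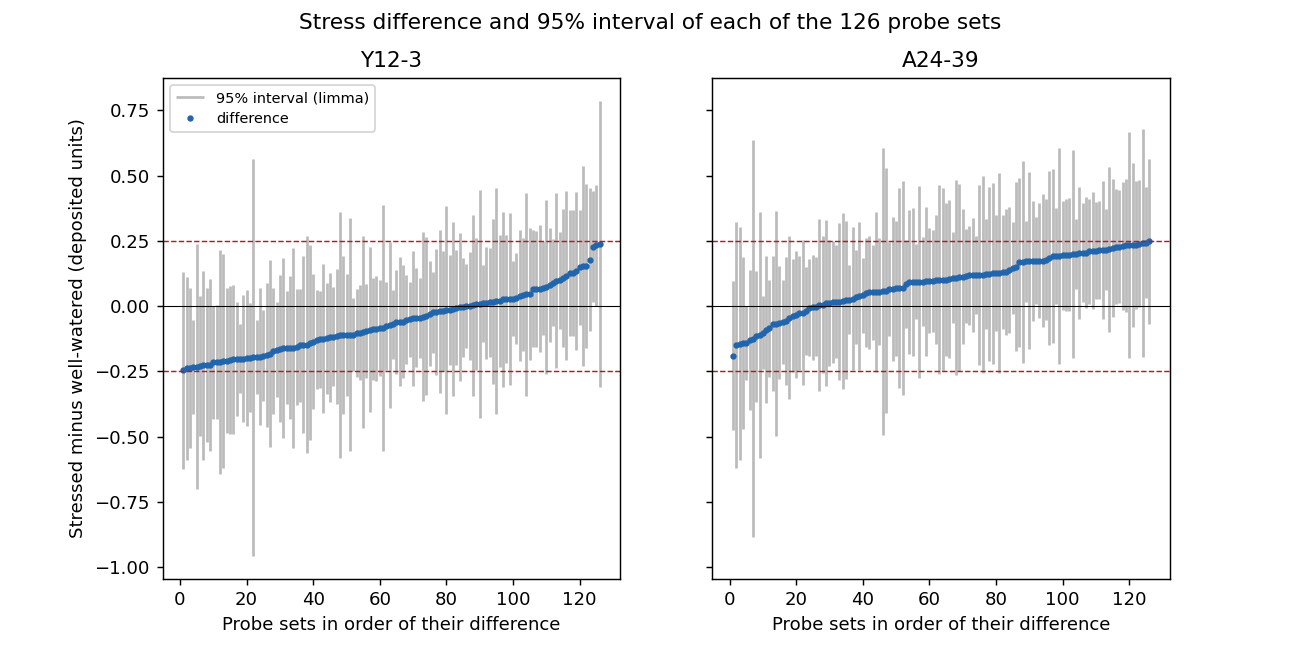
Stressed minus well-watered difference (points) with its 95% limma interval (grey bars) for each of the 126 probe sets, in deposited units, ordered within Y12-3 (left) and A24-39 (right). The dashed lines mark 0.25; the interval stays between them for 21 probe sets in Y12-3 and 15 in A24-39.

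The 5 probe sets whose intervals stayed within 0.25 units of 0 in both genotypes, picked out after their values were seen, were Ta.1770.1.S1_a_at, Ta.23771.1.S1_at, Ta.27578.1.S1_at, Ta.5528.1.S1_at and Ta.7299.1.S1_at. The former pair were also the flattest over all 12 arrays among those without a symbol. Ta.1770.1.S1_a_at read 3.20, 3.05 and 2.93 in watered and 2.98, 3.07 and 2.98 in stressed Y12-3, and 2.99, 3.06 and 3.06 in watered and 3.11, 3.13 and 3.00 in stressed A24-39, with an SD of 0.0771 (n = 12). All 4 groups overlapped, and the stress differences were -0.05 (95% interval -0.19 to 0.09) and 0.04 (-0.10 to 0.19). Ta.23771.1.S1_at read 3.28, 2.99 and 3.14 in watered and 3.16, 3.06 and 3.19 in stressed Y12-3, and 3.03, 3.13 and 3.20 in watered and 3.11, 3.00 and 3.06 in stressed A24-39, with an SD of 0.0892 (n = 12). Its 4 groups overlapped too. Both lay near the lower limit of the level, and Ta.1770.1.S1_a_at had the lowest mean of the 126, at 3.05.

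At the other end, Ta.1078.2.S1_a_at and Ta.14126.1.S1_at were the brightest probe sets without a symbol, with means of 4.92 and 4.63. Ta.14126.1.S1_at read 4.76, 4.74 and 3.95 in watered and 4.30, 4.29 and 4.41 in stressed Y12-3, and 4.55, 4.75 and 4.98 in watered and 4.99, 4.90 and 4.96 in stressed A24-39. The stressed Y12-3 arrays were all lower than every A24-39 array, while the well-watered Y12-3 arrays lay on both sides of them. Its stress differences were -0.15 for Y12-3 and 0.19 for A24-39, each with an SE of 0.19. Ta.1078.2.S1_a_at ran from 4.13 on the third well-watered Y12-3 array to 5.40 on the third well-watered A24-39 array. The widest spread of the 126, an SD of 0.559 (n = 12), belonged to Ta.27457.7.S1_x_at, which read 4.34, 4.07 and 2.67 on the well-watered Y12-3 arrays and lay between 3.34 and 4.62 on the other 9.

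Small steps separated the probe sets inside and outside the limits. Just inside the limit on differences lay Ta.1406.1.S1_a_at, at 0.2485 in A24-39, and Ta.1532.1.S1_a_at (LOC778417), at -0.2459 in Y12-3. Just outside lay Ta.1053.2.S1_x_at, at -0.2512, and Ta.5419.2.S1_a_at, at 0.2536, both in Y12-3. On the level, Ta.1055.2.S1_x_at (3.0008) and Ta.5330.1.S1_at (3.0061) had the lowest group means inside, and Ta.3625.1.S1_at (2.9994) and Ta.4403.1.S1_at (2.9952) came closest from outside. Of the 287 abundant probe sets set aside, 67 passed 0.25 in Y12-3 alone and 95 in A24-39 alone. Another 79 were higher by at least 0.25 in both genotypes, 43 lower in both, and 3 differed in opposite directions.

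SAHH was represented by 2 probe sets on the array, and both were among the 126. Ta.1258.1.S1_a_at read 4.47, 4.31 and 3.66 in watered and 3.94, 4.01 and 4.02 in stressed Y12-3, and 4.27, 4.51 and 4.63 in watered and 4.63, 4.67 and 4.50 in stressed A24-39. The stressed values lay within the range of the well-watered ones for Y12-3 and reached slightly above it for A24-39. The stress differences were -0.16 ± 0.17 and 0.13 ± 0.17 (SE). Ta.1258.2.S1_x_at, which shares the target cluster and is not an independent measurement, differed by -0.14 and 0.11 at a lower mean level of 3.87, against 4.30.

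**Figure D4:**
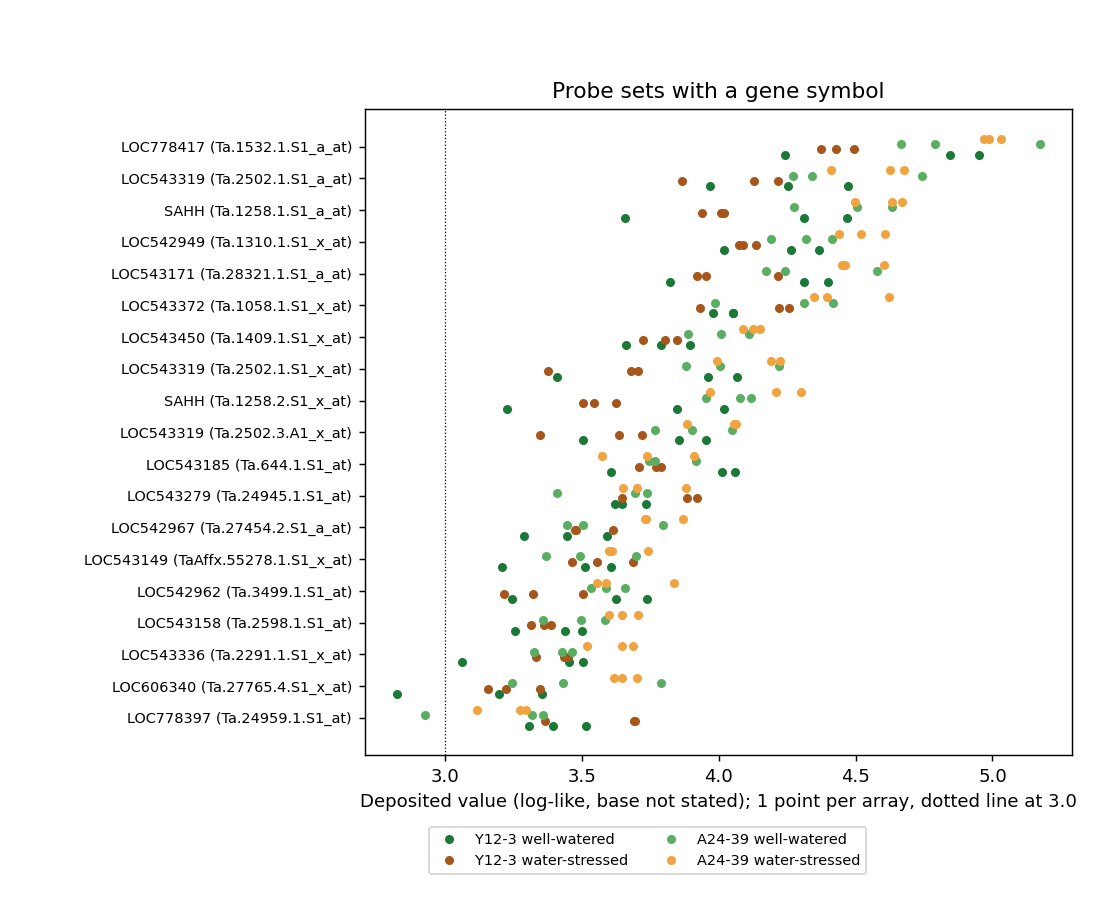
Values of the 19 probe sets with a gene symbol, 1 point per array, coloured by genotype and watering, in deposited units and ordered by mean level. Mean levels run from 3.35 (LOC778397) to 4.75 (LOC778417), and the A24-39 points lie mostly to the right of the Y12-3 points in the brighter rows.

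LOC778417 was the brightest of the 16 genes, on its single probe set. It read 4.95, 4.84 and 4.24 in watered and 4.43, 4.37 and 4.50 in stressed Y12-3, and 4.67, 4.79 and 5.17 in watered and 4.97, 4.99 and 5.03 in stressed A24-39. The stressed values lay within the well-watered range in both genotypes. LOC543319 had 5 probe sets, of which 3 were among the 126, the brightest with a mean of 4.33. Another was abundant with a stress difference of -0.29 in Y12-3, past the limit, and the last lay lower, at 2.52, with differences of -0.09 and 0.07.

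For the other genes with several probe sets, the probe set decided whether the gene was inside the limits. LOC606340 had 10, of which 1 was inside. Another 3 were abundant and differed by 0.27 to 0.34 in A24-39, and of the 6 below the level limit 3 lay at background, at -0.67 to -0.42. LOC543372 had 1 inside and 2 abundant ones outside, of which TaAffx.120885.1.S1_s_at differed by 0.61 in Y12-3 and 0.29 in A24-39. LOC543149 and LOC543171 each had 1 of 3 inside, and LOC542967 had 1 of 2.

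The other 8 genes had 1 probe set each. LOC542949 was the brightest of these (4.29), followed by LOC543450 (3.92), LOC543185 (3.80), LOC543279 (3.71), LOC542962 (3.53), LOC543158 (3.47), LOC543336 (3.44) and LOC778397 (3.35). LOC543279 was higher under stress in both genotypes, by 0.15 and 0.13, and LOC543185 was lower in both, at -0.14 and -0.07. LOC542962 differed by -0.19 in Y12-3 and 0.07 in A24-39, and LOC778397 by 0.18 and 0.03. The cluster of LOC778397 held another abundant probe set, Ta.24959.2.S1_at, without a symbol, which differed by -0.56 and -0.10. LOC543336 and LOC542949 had the widest differences in A24-39, at 0.21 each, beside 0.07 and -0.12 in Y12-3.

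Common reference genes were carried by the array as control probe sets, which the rule left out. Of the 3 for wheat ubiquitin, the small protein that marks others for breakdown, 2 would have met both limits. The 3′ probe set had means of 3.34 ± 0.18 in watered and 3.18 ± 0.02 in stressed Y12-3, and of 3.34 ± 0.12 and 3.24 ± 0.09 in A24-39 (SD, n = 3). The 5′ probe set had means of 4.45 ± 0.20 and 4.34 ± 0.03 in Y12-3, and of 4.54 ± 0.11 and 4.60 ± 0.04 in A24-39 (SD, n = 3). The middle probe set differed by -0.29 in Y12-3 and missed the limit. The controls for actin, elongation factor 1-alpha and glyceraldehyde-3-phosphate dehydrogenase had group means of only -0.58 to 0.22, far below the 126. Many of these lay under -0.15, the highest mean of the controls without matching RNA. These probe sets were thus at or near background and were not read as levels of the genes. The control for wheat 18S ribosomal RNA had group means of 0.16 to 0.94, also below the level limit. It was lower under stress, by -0.59 in Y12-3 and -0.64 in A24-39.

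Lists of gene classes that are often abundant in roots were looked up by symbol, and nearly all were empty, since few symbols are names. Ribosomal proteins, translation factors, actin, ubiquitin, histones, chaperones, water channels, metallothioneins and proton pumps matched 0 probe sets. TUBA, alpha-tubulin, had 2 probe sets, of which 1 was abundant but outside the limit and 1 was below the level. Under glycolysis the symbol GAPN, which the list as planned did not name, matched 1 probe set, and PFK was not looked up. In the redox list CAT1 matched 2 probe sets. Those of GAPN and CAT1 were all below the level. The shoot markers FBP and petC had 4 probe sets with group means of at most -0.11. With 107 of the 126 lacking a symbol and 15 of 16 symbols being placeholders, these lists say nothing about which classes the 126 belong to.

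The identifiers carry design information that the rule did not use. Of the 126, 125 had the prefix Ta and 1 had TaAffx, although TaAffx probe sets make up 48.6% of those tested, and among the 287 other abundant ones the share of TaAffx was 3.48%. The suffix _x_at, which marks probe sets with probes that may also bind unrelated transcripts, was carried by 42 of 126 (33.3%), against 39.0% of the 287 and 11.1% of all. The suffix _a_at, which marks probes shared by variants of 1 gene, was carried by 16.7%, 16.0% and 5.43%. The suffix _s_at, for probes shared by several transcripts, was carried by 4.76%, 8.71% and 4.28%. An antisense target (A in place of S) was found for 2.38%, 6.62% and 17.4%. In prefix and in the suffixes _x_at and _a_at the 126 lay closer to the other abundant probe sets than to the array as a whole, and in the suffix _s_at closer to the array.

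The 126 probe sets came from 107 target clusters, as the cluster number in the identifier gives them. In 93 clusters there was 1 of the 126, and 14 clusters held 33 of them, with 4 in Ta.28553 and 3 each in Ta.1031, Ta.1052 and Ta.2502. Probe sets of 1 cluster can share probes and are not replicates. In 48 clusters every probe set of the array was among the 126, and in 59 there were others, 197 in all. Of these, 30 were abundant with a stress difference past the limit, and 167 had a group mean under 3.0, with means over 12 arrays from -0.69 to 3.74. Probe sets of 1 cluster could thus lie at very different levels.

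The comparison of the genotypes was not fixed by the choice of the 126, apart from the level limit and the bounded difference of responses. It was tested as Y12-3 minus A24-39 averaged over both waterings, in 1 limma fit of all 12 arrays and all 61115 probe sets. That fit had no replicate block. On the deposited scale, 107 of the 126 had a lower mean in Y12-3, and the median difference was -0.19, against -0.01 over all tested. limma called 38 of the 126 (30.2%), where it called 12.7% of all. Of these, 37 were lower and 1 higher in Y12-3 (29.4% and 0.794%), where it called 5.76% and 6.97% of all probe sets. The 287 other abundant probe sets had 31.7% lower and 0.697% higher, with a median of -0.29. All 6 arrays of Y12-3 lay below all 6 of A24-39 for 12 of the 126 (9.52%), against 5.31% of all probe sets with genotypes that do not overlap in either direction. Leaving out 1 stressed Y12-3 array gave 24 to 25 calls, and leaving out the first or the second stressed A24-39 array gave 24 and 23.

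The hybridisation controls differed in the same direction, and the poly-A control in the other. All 27 hybridisation control probe sets, which carry no plant sequence, were lower in Y12-3, with a median difference of -0.26 (from -0.51 to -0.09). The 9 of them as bright as the 126 differed by -0.51 to -0.28. The 9 probe sets of dap, a bacterial transcript added to the RNA before labelling, lay lower on the scale and had a median that differed by 0.22, with 0.12 between watered and 0.33 between stressed genotypes. The level exceeded by 0.1% of all tested probe sets on an array differed by -0.19 between watered and -0.49 between stressed genotypes. Among the 126 the difference grew with brightness, from a median of -0.11 for the 58 with a mean of 3 to 3.5 to -0.21 for the 48 at 3.5 to 4 and -0.33 for the 16 at 4 to 4.5. Over the 126 probe sets, which share arrays and are not independent, Pearson's r of difference and level was -0.488 and Spearman's rho -0.501.

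**Figure D5:**
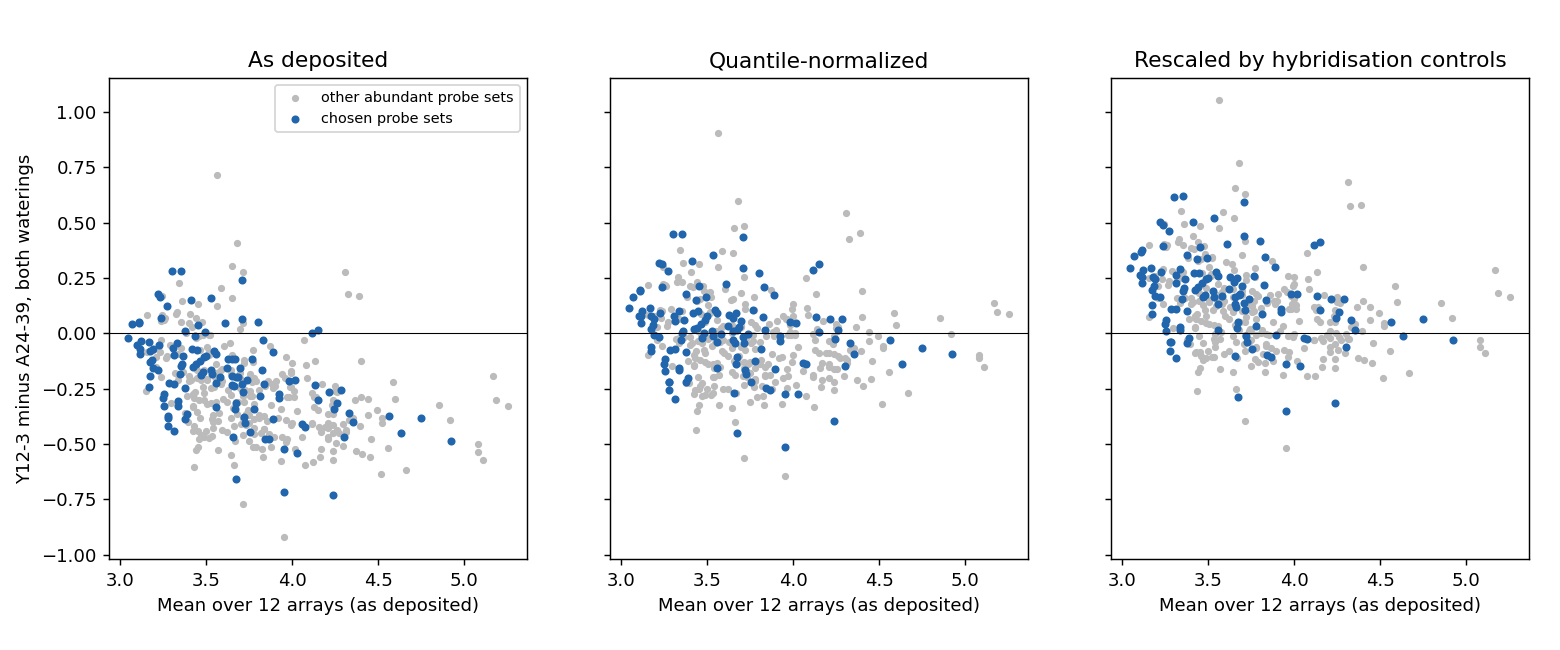
Y12-3 minus A24-39 averaged over both waterings against the mean level, for the 126 chosen and the 287 other abundant probe sets, as deposited (left), after quantile normalization (middle) and after rescaling by hybridisation controls (right). The median of the 126 is -0.19, 0.01 and 0.17 in the 3 panels.

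On other scalings this offset was absent or turned. After quantile normalization, which gives all arrays the same distribution, the median difference of the 126 was 0.01, and limma called 12 higher and 14 lower. After each array was put on the line of its hybridisation controls, the median was 0.17, and limma called 34 higher and 3 lower. The median over all probe sets moved to 0.05 in that scaling. With array medians set equal the median of the 126 was -0.19, as deposited. Shares called over all probe sets were not counted on these other scalings, so the counts of calls cannot be set against the array as a whole.

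A pair of probe sets, Ta.4343.1.S1_at and Ta.4343.1.S1_x_at, were the ones called lower in Y12-3 on all 4 scalings tried (deposited, equal array medians, quantile, hybridisation controls). Ta.4343.1.S1_at read 3.92, 4.10 and 3.59 in watered and 3.82, 3.71 and 4.10 in stressed Y12-3, and 4.19, 4.33 and 4.93 in watered and 4.57, 4.67 and 4.93 in stressed A24-39. Every Y12-3 array was lower than every A24-39 array. The difference was -0.73 ± 0.14 on the deposited scale (SE; adjusted p = 0.00631 by limma), and -0.40 after quantile normalization and -0.32 on the line of the hybridisation controls (adjusted p = 0.0052 and 0.0124 by limma). Ta.4343.1.S1_x_at, of the same target, differed by -0.66 ± 0.12 (SE; adjusted p = 0.00569 by limma). Both were called without any 1 of the 12 arrays. The third probe set of the cluster, Ta.4343.2.S1_at, lay at background in all groups, at -0.74 to -0.60.

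Ta.2228.1.S1_a_at was the one probe set called higher in Y12-3 on the deposited scale, and it was called so on all 4 scalings. It read 3.67, 3.61 and 3.27 in watered and 3.29, 3.43 and 3.38 in stressed Y12-3, and 3.07, 3.30 and 3.21 in watered and 3.07, 3.12 and 3.20 in stressed A24-39. All 6 Y12-3 arrays were above the A24-39 mean, and the ranges of the genotypes overlapped slightly. The difference was 0.28 ± 0.07 (SE; adjusted p = 0.0244 by limma), and 0.45 and 0.62 on the quantile and hybridisation scalings. On the deposited scale the call was lost (adjusted p up to 0.0611 by limma) without the second well-watered Y12-3, the first well-watered A24-39, the second or the third stressed Y12-3, or the first or the second stressed A24-39 array.

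Among the genes with a symbol, SAHH had the widest differences between genotypes on the deposited and equal-median scales. As deposited they were -0.47 ± 0.12 and -0.48 ± 0.12 on its 2 probe sets (SE; adjusted p = 0.0306 and 0.0248 by limma), with all 6 Y12-3 arrays below the A24-39 mean. After quantile normalization they were -0.15 and -0.26, and after rescaling by hybridisation controls -0.06 and -0.11, and these did not pass (adjusted p = 0.32, 0.167, 1.0 and 0.741 by limma). The first probe set also lost its call without the second or the third well-watered A24-39 array, any stressed Y12-3 array, or the first or the second stressed A24-39 array. The second lost it without the third well-watered A24-39, the first or the third stressed Y12-3, or the first or the second stressed A24-39 array. In these settings the adjusted p of limma reached 0.071 and 0.0632, with differences of -0.55 to -0.35 and -0.56 to -0.36 over all 12. With the replicate number as a block within each watering, the first probe set missed the threshold (adjusted p = 0.063 by limma).

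LOC543450 and LOC542949 were also lower in Y12-3 and were called without any 1 of the 12 arrays. LOC543450 read 3.89, 3.79 and 3.66 in watered and 3.80, 3.72 and 3.85 in stressed Y12-3, and 3.89, 4.01 and 4.11 in watered and 4.15, 4.13 and 4.09 in stressed A24-39. Both genotypes met at 3.89, and the difference was -0.28 ± 0.05 (SE; adjusted p = 0.00316 by limma). LOC542949 differed by -0.26 ± 0.06 (SE; adjusted p = 0.0185 by limma), with a clear gap between genotypes in stressed roots (4.07 to 4.14 against 4.44 to 4.61) and overlap in watered roots. With the replicate block within each watering it missed the threshold (adjusted p = 0.0505 by limma). LOC606340 and LOC543158 differed by -0.39 ± 0.10 and -0.19 ± 0.05 (SE; adjusted p = 0.0334 and 0.03 by limma). LOC606340 lost its call without the third well-watered Y12-3, the first or the third well-watered A24-39, the first or the second stressed Y12-3, or any stressed A24-39 array (adjusted p up to 0.0763 by limma). LOC543158 lost it without the second or the third well-watered A24-39, any stressed Y12-3, or the first or the third stressed A24-39 array (adjusted p up to 0.0701 by limma). With the same block LOC606340 and LOC543158 missed the threshold too (adjusted p = 0.0726 and 0.0504 by limma).

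The remaining 11 genes with a symbol did not pass on the deposited scale. LOC778417, the brightest, differed by -0.38 ± 0.12 (SE; adjusted p = 0.0653 by limma). There LOC778397, at 0.28 ± 0.09, LOC543279, at 0.06, and LOC543185, at 0.05, were the ones above 0 (SE; adjusted p = 0.062, 0.587 and 0.732 by limma). With the replicate block within each watering, LOC543372 (-0.26) and LOC778397 passed (adjusted p = 0.019 and 0.00764 by limma).

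The scalings moved all of these genes. Of the 19 probe sets with a symbol, 16 were lower in Y12-3 as deposited, 11 after quantile normalization and 4 on the line of the hybridisation controls. LOC778397, LOC543279 and LOC543185 were called higher in Y12-3 on both other scalings, with 0.45, 0.30 and 0.27 on quantiles and 0.62, 0.44 and 0.42 on hybridisation controls (adjusted p = 0.0278, 0.0107 and 0.0191, and 4.43e-07, 0.000205 and 0.000423 by limma). These exceeded SAHH in size on both scalings. Ta.24959.2.S1_at, of the same cluster as LOC778397, was at -0.26 as deposited, -0.04 on quantiles and 0.11 on hybridisation controls. LOC606340 was at -0.22 and -0.04, called as lower on quantiles and not on hybridisation controls (adjusted p = 0.0289 and 1.0 by limma). LOC542949, LOC543450 and LOC543158, called as lower on the deposited scale, were at 0.064, -0.01 and -0.02 on quantiles and at 0.16, 0.11 and 0.16 on hybridisation controls, none of them called. On hybridisation controls LOC543149 was called higher, at 0.28 (adjusted p = 0.0355 by limma). There LOC778417, LOC542962, LOC543336, LOC543372, LOC542967, LOC543171 and 2 of the 3 probe sets of LOC543319 were at 0.06 to 0.21, also turned, and not called.

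Within each watering, limma called 0 of the 126 between well-watered genotypes, where it called 5.29% of all and 1.05% of the 287 other abundant probe sets. At an unadjusted p under 0.05, 26 passed there, 21 of them lower, and the share of all probe sets passing it was not counted. With a replicate block, on the number or within each watering, 2 were called there. Between stressed genotypes it called 26 of the 126 (20.6%), where it called 8.47% of all and 13.9% of the 287. All 26 were lower in Y12-3, where it called 3.4% of all as lower. The median differences of the 126 were -0.10 in watered and -0.26 in stressed roots. Those of the 287 were wider, at -0.19 and -0.38, with a larger median residual SD (0.218 against 0.152). The cre controls differed by -0.20 and -0.71. On the line of the hybridisation controls, 51 of the 126 were called higher and 0 lower between stressed genotypes. Without the third well-watered Y12-3 array, the median difference in watered roots was -0.0032, with 2 called higher, and 57 were called in stressed roots. Without any 1 of the stressed arrays, 10 to 14 were called in stressed roots. No share over all probe sets was counted on the hybridisation scaling, with a block or without an array, so those counts have no background beside them.

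The scaling also decided which probe sets kept to the limit on stress differences. After quantile normalization 112 of the 126 met both limits, among 189 that did. With array medians set equal it was 125, among 129. On the line of the hybridisation controls 33 of the 126 did, among 92. There the stress difference of the 126 had a median of 0.30 in Y12-3 (from 0.12 to 0.68) and 0.01 in A24-39 (from -0.24 to 0.16), and 84 were at or above 0.25 in Y12-3. The median over all tested probe sets was 0.22 in Y12-3 and 0.09 in A24-39 on that scaling. Set against the hybridisation controls, 84 of the 126 were thus past the limit in Y12-3 and 0 in A24-39.

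On all 4 scalings, 30 of the 126 met both limits. Both SAHH probe sets were among them, as were LOC778417, LOC543171, LOC542962, LOC543185 and all 3 chosen probe sets of LOC543319. The stress differences of SAHH over the 4 scalings ran from -0.16 to 0.24 (Y12-3) and from -0.06 to 0.13 (A24-39). On the deposited scale all 30 were lower under stress in Y12-3, with differences of -0.25 to -0.13 and a median of -0.20, and the hybridisation scaling moved the Y12-3 differences of the 126 up. None of the 5 probe sets whose intervals stayed within 0.25 units of 0 in both genotypes was among the 30. On the line of the hybridisation controls these 5 differed by 0.2522 (Ta.7299.1.S1_at) to 0.43 in Y12-3, past the limit. The 30 were chosen after their values were seen.

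Single arrays moved the selection too. Without the third well-watered Y12-3 array 79 of the 126 met the limits, and the median stress difference of the 126 in Y12-3 was -0.18 in place of -0.07. Without the third well-watered A24-39 array 92 did, and the median in A24-39 was 0.16 in place of 0.10. Without any other single array 111 to 125 of the 126 stayed inside.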

How the data were processed

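Roots of 2 wheat genotypes were measured on 12 Affymetrix wheat genome arrays. The authors deposited a score, 1 log-like value per probe set and array. RMA, with no version, is the tool named, per the submitters' processing notes; no source used here gives the base, centring or scaling, and values were used as deposited. The number of arrays limits the precision. All 61290 probe sets were read, 175 controls (identifiers starting with AFFX or RPTR) were left out, and 61115 were fitted with limma 3.58.1 in R 4.3.3 (lmFit, eBayes; 4 group means; Benjamini-Hochberg over all, adjusted p under 0.05). The script was tested on simulated data. Errors are limma's moderated SE, or SDs over 3 arrays. For rescaling, each array was put on the line of its 27 hybridisation controls against their mean over arrays. No 2 arrays held identical values; correlations within groups were 0.968 to 0.992.

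Replicate numbers, from the titles, were checked for pairing. Deviations of same-numbered arrays of the 2 genotypes correlated at 0.197 to 0.278 (watered) and 0.170 to 0.575 (stressed), all over 0.1, and were taken as pairs. Differently numbered ones correlated at -0.189 to -0.017 (watered) and -0.51 to 0.175 (stressed). The 0.175 joined the first stressed Y12-3 and the third stressed A24-39 array, so the numbers did not set that first pair apart. The main fit, which gave the p-values unless another setting is named, had no term for the pairs. The rule for named probe sets took all those with a symbol, the 2 brightest and 2 flattest without one, the 2 highest and 2 lowest genotype differences among those called, and the nearest neighbours of each limit. Members, lists and rules were chosen with earlier results of these data known. Alternatives were another block, array, scaling, prior, weighting, probe set filter and limit.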

Additional observations from a re-analysis of the deposited data

How the results depend on the processing

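The count of probe sets inside the limits was 126. It was 296 and 47 with a level of 2.5 and 3.5, 82 with a difference under 0.2, and 87 to 162 without single arrays. Shares called over all probe sets were counted for the main fit alone, so the calls in other settings have no background beside them. For genotype differences over both waterings, 38 were called, and 23 to 51 without single arrays. With a replicate block it was 39 on the number and 34 within each watering regime. It was 26 with trend and robust priors and 37 (34 higher, 3 lower), the direction turned, on hybridisation controls. In well-watered roots 0 were called, and 0 to 4 without single arrays. There it was 2 with either replicate block, 7 on quantiles, 1 with equal medians, 4 on hybridisation controls, 2 with array weights and 1 without dim probe sets. In stressed roots 26 were called, and 10 to 57 without single arrays. There it was 14 on quantiles (8 higher, 6 lower, so in both directions) and 51 on hybridisation controls (turned). It was 12 with trend and robust priors, 67 with array weights and 70 in the fit of 6 arrays. Of 9 named calls, the block within each watering ended 4 and added 2, and the block on the number ended 0 and added 1. Of 26 named probe sets, those whose difference changed sign from the deposited one, called or not, numbered 6 on quantiles and 13 on hybridisation controls. Sign changes that began or ended with a call were 6: Ta.1310.1.S1_x_at on quantiles (0.064), and on hybridisation controls Ta.1310.1.S1_x_at (0.16), Ta.1409.1.S1_x_at (0.11), Ta.2598.1.S1_at (0.16), TaAffx.55278.1.S1_x_at (0.28) and Ta.1770.1.S1_a_at (0.30). Beside the scalings, whose effect the values above show, the cause was not tested.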
